A study of Bos taurus with 9 samples.

Results

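Gastrin-releasing peptide (GRP), its relative neuromedin B (NMB) and the GRP receptor (GRPR) were followed in three-dimensional cultures of bovine uterine glands. They are 3 of the 20679 genes listed in the deposited tables and were found there by symbol. They were picked for description with their levels in the 3 culture groups already known, so their levels and changes are given without a test. GRP and NMB passed the filter on low counts and GRPR did not.

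RNA was sequenced on day 5 of culture in 9 libraries, with 3 libraries in each of 3 groups. Gland fragments (Bos taurus) came from abattoir uteri with a corpus luteum, and their age and breed are not given in the sources used here. The CYST group (Control) was embedded in Matrigel, a basement membrane extract, without epidermal growth factor (EGF) and formed closed cysts. The MAT group was embedded in Matrigel with EGF and formed elongated uterine gland-like (UG-LIKE) structures. The MAT + COL group received EGF in Matrigel mixed with type I collagen. All groups shared a medium with insulin, transferrin, albumin (BSA), selenite and ascorbic acid, and no steroid hormone is named among its components. The fragments were picked by hand after digestion of the endometrium, so the cultures lack the intact endometrium around the glands. The comparison of MAT with CYST asks what EGF changes, and that of MAT + COL with MAT asks what collagen I changes. In the former, EGF and the form of the structure cannot be told apart.

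GRP and NMB are the mammalian bombesin-like peptides. Each is made as a precursor that loses its signal peptide, is cut by proteases and receives an amide group at its carboxyl end. GRP acts mainly on GRPR and NMB on NMBR. Both receptors couple to Gq proteins, which activate phospholipase C and release calcium from intracellular stores. BRS3 is an orphan relative of these receptors. GRP is best known from neurons and pulmonary neuroendocrine cells, but the gland epithelium of the ruminant uterus also makes it.

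The number of reads counted per library ran from 6568968 to 17948600. All 10 epithelial markers were detected in at least 1 library, and their summed level was 20406 to 22730 TPM (a transcript level corrected for gene length and depth, with the same total in each library) in CYST, 32110 to 49760 in MAT and 32850 to 44012 in MAT + COL. One library stood apart in a very abundant gene: FTH1, the ferritin heavy chain, had 120090 TPM in CYST replicate 3 against 35940 and 34114 in CYST replicates 1 and 2. Nothing in the labels says that the 3 libraries of a group came from separate cows. The text of the study describes the MAT and MAT + COL samples as dividing by individuals, which reads as individuals shared by both groups, but it does not say which replicate number is which individual or whether CYST shares them. For CYST, p-values measure the spread between libraries whose source is not stated. In these bulk libraries, fewer cells of a type and less RNA per cell cannot be told apart.

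GRP (ENSBTAG00000004796, chromosome 24 from 58203569 to 58216345 of ARS-UCD2.0, plus strand) had 38815, 40216 and 47757 TPM in CYST replicates 1 to 3. The levels were 361.5, 183.4 and 264.3 TPM in MAT and 317.7, 423.8 and 397.8 TPM in MAT + COL. Every CYST library was far above every library with EGF, and the lowest CYST level was 107.4-fold the highest MAT level and 91.6-fold the highest MAT + COL level. MAT and MAT + COL overlapped, and NMB, described further on, overlapped between them too. Groups that did not overlap in that comparison were found for 2.75% of 12470 genes tested with MAT + COL higher and for 0.818% with MAT + COL lower. The group means were 42263 ± 4809 TPM (SD, n = 3) in CYST, 269.7 ± 89.2 TPM (SD, n = 3) in MAT and 379.7 ± 55.3 TPM (SD, n = 3) in MAT + COL. CYST libraries thus varied by 11.4% of their mean, against 33.1% in MAT and 14.6% in MAT + COL.

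The levels rest on many reads. GRP took 154131, 310098 and 244446 reads in the CYST libraries. The lowest number was 1117 reads in MAT replicate 1, the shallowest library, with an exact 95% Poisson interval of 1052 to 1185. MAT replicate 2, which had the lowest TPM, held 1512 reads with an interval of 1437 to 1590. These intervals cover counting error only, because reads amplified by PCR were counted without molecular identifiers.

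**Figure D1:**
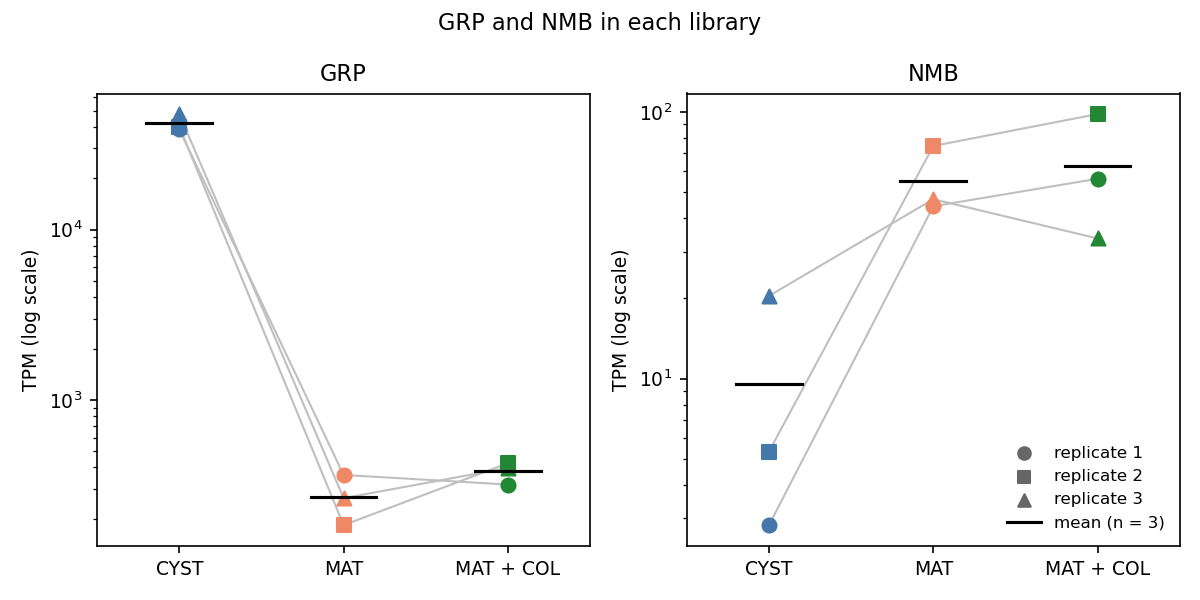
GRP (left) and NMB (right) in TPM on a log axis in the 9 libraries, by group. Symbols mark the replicate number, grey lines join same-numbered libraries and black bars are means of 3 libraries. All 3 CYST libraries lie between 38815 and 47757 TPM for GRP and below the libraries with EGF for NMB, where CYST replicate 3 is nearest to them at 20.4 TPM.

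In CYST replicates 1 and 2, GRP had the highest TPM of all genes, and in CYST replicate 3 it came second after FTH1. Its share of all TPM was 3.88%, 4.02% and 4.78% in the CYST libraries. By group mean it ranked second behind FTH1 and ahead of TMSB4X (16288 TPM), which encodes the actin-binding thymosin beta 4, and of ACTB (9228 TPM), the cytoplasmic actin. The fifth gene of the CYST group was ENSBTAG00000013343 (8617 TPM), an interval of chromosome 18 that covers the whole ferritin light chain gene FTL and part of TULP2 in RefSeq. In MAT, by contrast, the 5 highest genes were FTH1, TMSB4X, the keratins KRT19 (17274 TPM) and KRT8 (15490 TPM), and ACTB. MAT + COL had the same first 4. The rank of GRP was 399, 946 and 562 in the MAT libraries and 492, 318 and 345 in the MAT + COL libraries, with 0.0183% to 0.0424% of all TPM. GRP was therefore still detected in all 6 libraries with EGF, and the source of these reads was not tested.

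**Figure D2:**
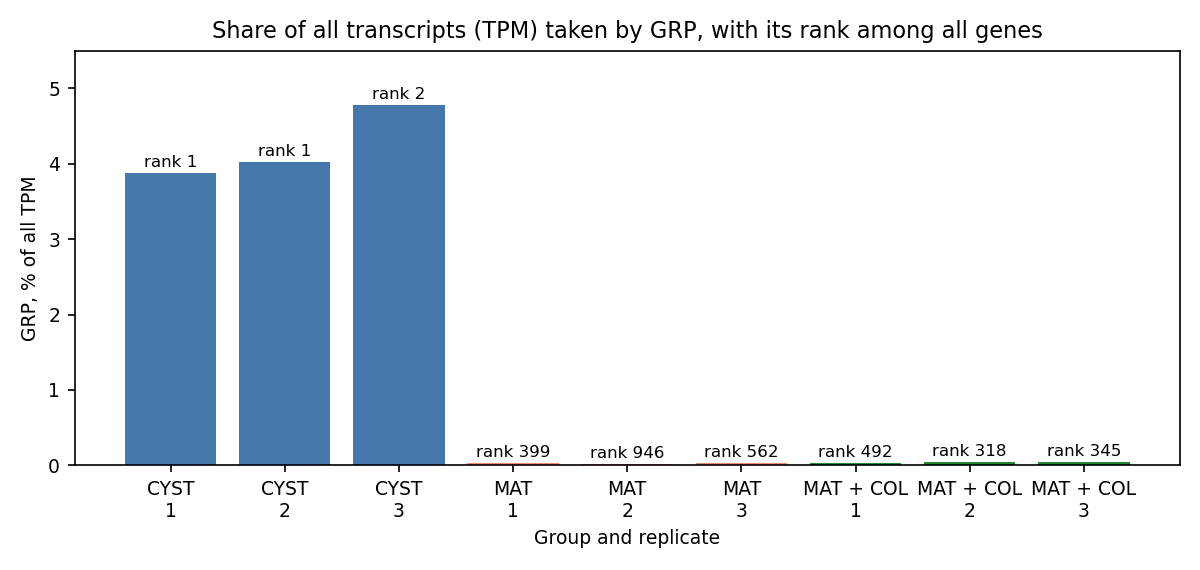
Share of all TPM taken by GRP (bars, linear axis from 0) in each of the 9 libraries, with the rank of GRP among all genes above each bar. The CYST bars stand at 3.88%, 4.02% and 4.78%, and those of the 6 libraries with EGF lie under 0.05%.

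The fitted Log2FC of GRP, from edgeR with TMM-normalised counts, was -7.33 (standard error, SE, 0.38) in MAT against CYST and -6.88 (SE 0.33) in MAT + COL against CYST. These contrasts share the CYST libraries. The Log2FC stayed between -7.52 and -7.11 and between -6.99 and -6.65 when each library was left out in turn. In same-numbered libraries, CYST exceeded MAT by 107.4-fold, 219.3-fold and 180.7-fold, and exceeded MAT + COL by 122.2-fold, 94.9-fold and 120.1-fold. GRP was among the tested genes whose TPM did not overlap and was lower with EGF, as were 11.8% of the 12074 genes tested for MAT and 10.3% of the 12509 tested for MAT + COL. Since the gene was picked for this difference, nothing is read from that count.

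Few genes had a fitted Log2FC below that of GRP. In MAT against CYST there were 3, namely the SERPINA14 locus described further on, HORMAD2 (a meiotic chromosome axis protein) and HAL (histidine ammonia-lyase). HORMAD2 and HAL had only 2.03 and 0.896 TPM in CYST and 0 reads in every MAT library, so their fitted values depend on the prior count. In MAT + COL against CYST there were 2, the SERPINA14 locus and FST, which encodes the activin-binding protein follistatin and had at most 2 reads in any MAT + COL library.

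Collagen I went with no separation of GRP. The level in MAT + COL was 1.14-fold lower than in MAT for replicate 1, and 2.31-fold and 1.51-fold higher for replicates 2 and 3. The fitted Log2FC was 0.43 (SE 0.27), and 0.47 (SE 0.22) with the replicate number as a block.

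NMB (ENSBTAG00000058029, chromosome 21 from 22316005 to 22319391, minus strand) lay in the opposite direction. Its levels were 2.82, 5.33 and 20.4 TPM in CYST, 44.3, 74.7 and 47.1 TPM in MAT, and 56.2, 98.4 and 33.6 TPM in MAT + COL. All 6 libraries with EGF were above all CYST libraries, but CYST replicate 3 came within 1.64-fold of MAT + COL replicate 3. The means were 9.53 ± 9.53 TPM (SD, n = 3) in CYST, 55.4 ± 16.8 TPM (SD, n = 3) in MAT and 62.7 ± 32.9 TPM (SD, n = 3) in MAT + COL. The spread within CYST was as large as its mean. It rests on few reads, with 9, 33 and 84 in the CYST libraries and an exact 95% Poisson interval of 4.12 to 17.1 for the first.

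The fitted Log2FC of NMB was 2.41 (SE 0.74) in MAT against CYST and 2.54 (SE 0.80) in MAT + COL against CYST. With the replicate block the values were 2.89 (SE 0.63) and 2.96 (SE 0.84). One library decided their size: without CYST replicate 3 they were 3.82 and 3.93. In same-numbered libraries NMB was 15.7-fold, 14.0-fold and 2.31-fold higher in MAT, and 19.9-fold, 18.4-fold and 1.64-fold higher in MAT + COL. Groups that did not overlap, with higher TPM under EGF, were found for 11.9% of genes tested in MAT and 14.3% in MAT + COL, and NMB was chosen with this known. Between MAT + COL and MAT the Log2FC of NMB was 0.09 (SE 0.41), with replicates 1 and 2 higher and replicate 3 lower in MAT + COL.

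The 309 bases at the 3′ end of the NMB interval also belong to WDR73 on the same strand, so reads there cannot be assigned to one of the genes by position. WDR73 itself had 20.4 ± 2.85, 26.0 ± 2.51 and 27.5 ± 6.03 TPM (SD, n = 3 each) in CYST, MAT and MAT + COL. Its Log2FC in MAT against CYST was 0.34 (SE 0.18, adjusted p = 0.341 from edgeR).

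The same values set the balance of the ligands. GRP exceeded NMB by 13747, 7543 and 2336 times in TPM in the CYST libraries. The ratio was 8.15, 2.46 and 5.61 in MAT and 5.65, 4.31 and 11.8 in MAT + COL. GRP was the more abundant ligand in all 9 libraries. Since TPM is a share of a fixed total, leaving GRP out raises the TPM of every other gene by a factor of 1.04 to 1.05 in CYST and of at most 1.0004 elsewhere, a far smaller step than the difference in NMB.

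Among 61 genes for peptide hormones, GRP had the highest mean TPM in each group. In CYST it made up 98.4%, 98.8% and 97.9% of their summed TPM. The next was STC1 (277.5 ± 171.1 TPM, SD, n = 3), the glycoprotein hormone stanniocalcin 1, with GRP 152.3-fold higher. With EGF the lead was narrow: ADM, which encodes the vasodilator adrenomedullin, had 262.9 ± 104.0 TPM (SD, n = 3) in MAT and 260.7 ± 138.5 TPM (SD, n = 3) in MAT + COL. GRP exceeded these means by 1.03-fold and 1.46-fold, less than the spread between libraries. GRP made up 25.2% to 49.8% of the summed peptide TPM in MAT and 34.6% to 50.7% in MAT + COL. NMB stood at position 8 in CYST and at position 5 in both groups with EGF.

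No read of GRPR (ENSBTAG00000007092, chromosome X from 127346064 to 127383270, minus strand) was counted in any of the 9 libraries. The same held for NMBR (ENSBTAG00000043954, chromosome 9 from 79578213 to 79586431) and BRS3 (ENSBTAG00000005616, chromosome X from 20090334 to 20094597). A count of 0 allows up to 3 reads (a one-sided 95% limit, unlike the two-sided intervals given for GRP and NMB), which is 0.167 to 0.457 CPM (counts scaled to library size) per library and 0.0240 CPM over the 125078130 reads of all libraries. Transcripts of the 3 receptors were thus not detectable at this depth. Of all listed genes, 4775 (23.1%) had 0 reads in every library.

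A list of 26 genes found for Gq and calcium signalling covers the machinery downstream of the receptors. GNAQ, the Gq alpha subunit itself, had 1.73 to 5.49 TPM over the 9 libraries, and its close relative GNA11 had 0.933 to 2.22 TPM. GNA14, another alpha subunit on the list, was more abundant. It had 8.84 ± 1.95, 62.5 ± 58.3 and 78.8 ± 84.2 TPM (SD, n = 3 each) in CYST, MAT and MAT + COL. Of 22 genes tested in MAT against CYST, 1 was called higher and 0 lower, where called means an adjusted p under 0.05, a Log2FC beyond 1 in either direction and a larger group mean above 1 TPM. The gene was PRKCD, a protein kinase C isoform activated by diacylglycerol. It went from 26.5 ± 6.35 to 59.6 ± 7.52 TPM (SD, n = 3 each), with a Log2FC of 1.18 (SE 0.21, adjusted p = 0.0448 from edgeR), and the call was lost when any 1 of the 6 libraries was left out. In MAT + COL it had 57.9 ± 7.77 TPM (SD, n = 3) and a Log2FC of 1.08 (SE 0.21, adjusted p = 0.0544, and 0.0400 with the replicate block). The median Log2FC of the list was 0.29 in MAT and 0.08 in MAT + COL, beside 0.01 and 0.04 over all genes tested. Over all genes tested in MAT, 0.837% were called higher without the block. With the block, 4 of the 22 genes were called higher in MAT (PRKCD, GNA14, ITPR3 and ORAI2), beside 3.54% of all genes tested. In MAT + COL it was 1 of 23 (PRKCD), beside 2.11%.

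Over 6 pathway lists, which together hold every listed gene tested, 6 of 87 genes (6.90%) were called in MAT against CYST, beside 1.67% of all genes tested. In MAT + COL against CYST, 5 of 89 (5.62%) were called, beside 1.29%. By direction, 1 was higher and 5 lower in MAT (0.837% of all genes each way), and 0 were higher and 5 lower in MAT + COL (0.624% and 0.664%). ANPEP, EDN1, FABP3 and SEC11C were called lower in both comparisons, which share the CYST libraries. With the replicate block the counts were 19 (21.8%, beside 7.02%) and 12 (13.5%, beside 3.89%). These were 10 higher and 9 lower in MAT (3.54% and 3.49% of all genes), and 5 higher and 7 lower in MAT + COL (2.11% and 1.77%). In MAT + COL against MAT, edgeR called 0 of 94, with 2 at an unadjusted p under 0.05 (10 with the block), and 0.0% of all genes tested were called. DESeq2 also called 0 genes in that comparison. Over all 12470 genes tested, edgeR gave 51 at an unadjusted p under 0.05 (618 with the block) and DESeq2 63. Several listed genes were known to differ when the lists were written, so these counts are not independent evidence. The calls were sensitive to leaving out 1 library. Without CYST replicate 1 or 2 only 1 listed gene was called in either comparison. Without replicate 1 or 2 of MAT or of MAT + COL none was, and without CYST replicate 3 there were 8 and 4. Over all genes tested, the number called also ranged widely, from 5 to 263 in MAT and from 3 to 184 in MAT + COL. The Log2FC in MAT stayed between -3.918 and -3.021 for ANPEP and between -3.455 and -2.715 for EDN1. It stayed between -3.534 and -2.854 for FABP3 and between -2.577 and -2.037 for SEC11C. The call of EDN1 was lost without CYST replicate 2 and that of FABP3 without CYST replicate 1, each in both comparisons. That of ANPEP was lost without either, and in MAT + COL also without CYST replicate 3.

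Genes for precursor processing included 19 found, of which 16 were tested in MAT and 15 in MAT + COL. SEC11C, a catalytic subunit of the signal peptidase that removes signal peptides, was the only one called by edgeR in either comparison without the block. It had 142.3, 104.0 and 180.4 TPM in CYST, 30.8, 20.8 and 33.0 TPM in MAT, and 32.9, 27.1 and 39.5 TPM in MAT + COL. The groups with EGF did not overlap with CYST. SEC11C fell by 2.38 on the log2 scale in MAT (SE 0.34, adjusted p = 0.0269 from edgeR) and had a Log2FC of -2.19 in MAT + COL (SE 0.32, adjusted p = 0.0344). Both calls were lost without CYST replicate 1 or 2, or without replicate 1 or 2 of the group with EGF, with an adjusted p of up to 0.129 in MAT and 0.160 in MAT + COL. The alternative catalytic subunit SEC11A had 275.1 ± 10.5, 321.8 ± 60.7 and 327.0 ± 74.0 TPM (SD, n = 3 each) in CYST, MAT and MAT + COL, with a Log2FC of 0.20 in MAT (SE 0.20, adjusted p = 0.624). How reads shared by these paralogs were counted is not given in the sources used here.

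The classical neuroendocrine convertases PCSK1 and PCSK2 had 0 reads in all 9 libraries. FURIN, a convertase of most cells, had 4.27 to 16.5 TPM, and PAM, the enzyme that amidates bombesin-like peptides, had 9.69 to 18.8 TPM. CPE, which trims basic residues after cutting, had 9.34 ± 2.88 TPM (SD, n = 3) in CYST and 4.22 ± 3.14 TPM (SD, n = 3) in MAT, with a Log2FC of -1.13 (SE 0.68, adjusted p = 0.399 from edgeR). In MAT + COL it had 3.43 ± 1.88 TPM (SD, n = 3) and a Log2FC of -1.48 (SE 0.51, adjusted p = 0.153 from edgeR). DESeq2 called CPE lower in MAT + COL and not in MAT. These genes were named for their role. The median Log2FC of the processing list was -0.23 in MAT and -0.08 in MAT + COL.

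Secretory granule genes numbered 17 found, of which 10 were tested in MAT and 11 in MAT + COL, with a median Log2FC of 0.41 and 0.55. RAB27B, a small GTPase that docks granules at the membrane, had 4.40 ± 3.70, 30.7 ± 14.3 and 29.5 ± 10.7 TPM (SD, n = 3 each) in CYST, MAT and MAT + COL. It was not called without the replicate block and was called higher with it, and by DESeq2 in both comparisons, with an edgeR adjusted p of 0.0118 in MAT (0.0948 without the block) and 0.0342 in MAT + COL (0.101 without the block). The chromogranin CHGA reached at most 0.912 TPM in any library, and CHGB had no reads.

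Cell surface peptidases limit the life of peptides outside the cell, and 9 of the 13 found were tested. MME, or neprilysin, which degrades GRP among other peptides, had 73.3 ± 38.2, 14.4 ± 4.39 and 25.9 ± 1.66 TPM (SD, n = 3 each) in CYST, MAT and MAT + COL. It was called lower in MAT (Log2FC -2.29, SE 0.41, adjusted p = 0.0450), a call kept only without CYST replicate 3 among the 6 settings that left out a library, and not in MAT + COL (Log2FC -1.51, SE 0.35, adjusted p = 0.0700). ANPEP, or aminopeptidase N, had 159.2 ± 65.7, 16.4 ± 9.37 and 15.7 ± 6.87 TPM. It was called lower in MAT (Log2FC -3.30, SE 0.52, adjusted p = 0.0349) and in MAT + COL (Log2FC -3.40, SE 0.51, adjusted p = 0.0373). NPEPPS, a cytosolic aminopeptidase, was not called without the block and was called higher with it, with an adjusted p of 0.0220 in MAT and 0.0376 in MAT + COL, and by DESeq2 in both.

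Among 59 other peptide hormone genes found, 30 had no reads in any library and 9 were tested in each comparison with CYST. EDN1, which encodes the vasoconstrictor endothelin 1, was the only one called by edgeR without the block. It went from 155.0 ± 84.1 TPM in CYST to 16.5 ± 1.96 in MAT and 24.4 ± 2.08 in MAT + COL (SD, n = 3 each), with a Log2FC of -3.21 (SE 0.35, adjusted p = 0.0178) and -2.70 (SE 0.34, adjusted p = 0.0268). With the block, STC1 and AGT, which encodes angiotensinogen, were also called lower in MAT (adjusted p = 0.0199 and 0.0468). ADM was not called in MAT, with a Log2FC of 1.07 (SE 1.00, adjusted p = 0.597).

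Genes known to respond to ovarian steroids in the ruminant endometrium were listed because GRP is expressed in the same glands. Of 25 found, 22 were tested in MAT and 23 in MAT + COL, and FABP3, a fatty acid-binding protein, was called lower in both. SERPINA14 was listed too but was not found by symbol. Its locus, described further on and called lower in both comparisons, is therefore not in the counts and medians of the lists. FABP3 had 122.8 ± 50.0, 13.5 ± 4.02 and 11.5 ± 3.14 TPM (SD, n = 3 each) in CYST, MAT and MAT + COL. Its Log2FC was -3.23 (SE 0.44, adjusted p = 0.0256 from edgeR) in MAT and -3.53 (SE 0.43, adjusted p = 0.0268) in MAT + COL. With the block, MUC1, MSX1, MSTN and SLC5A1 were called higher and STC1 and HSD11B1 lower beside FABP3 in MAT. The estrogen receptor ESR1 had 15.2 to 35.5 TPM over all libraries and the progesterone receptor PGR 0.469 to 2.18 TPM. The median Log2FC of the list was -0.15 in MAT and -0.22 in MAT + COL.

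**Figure D3:**
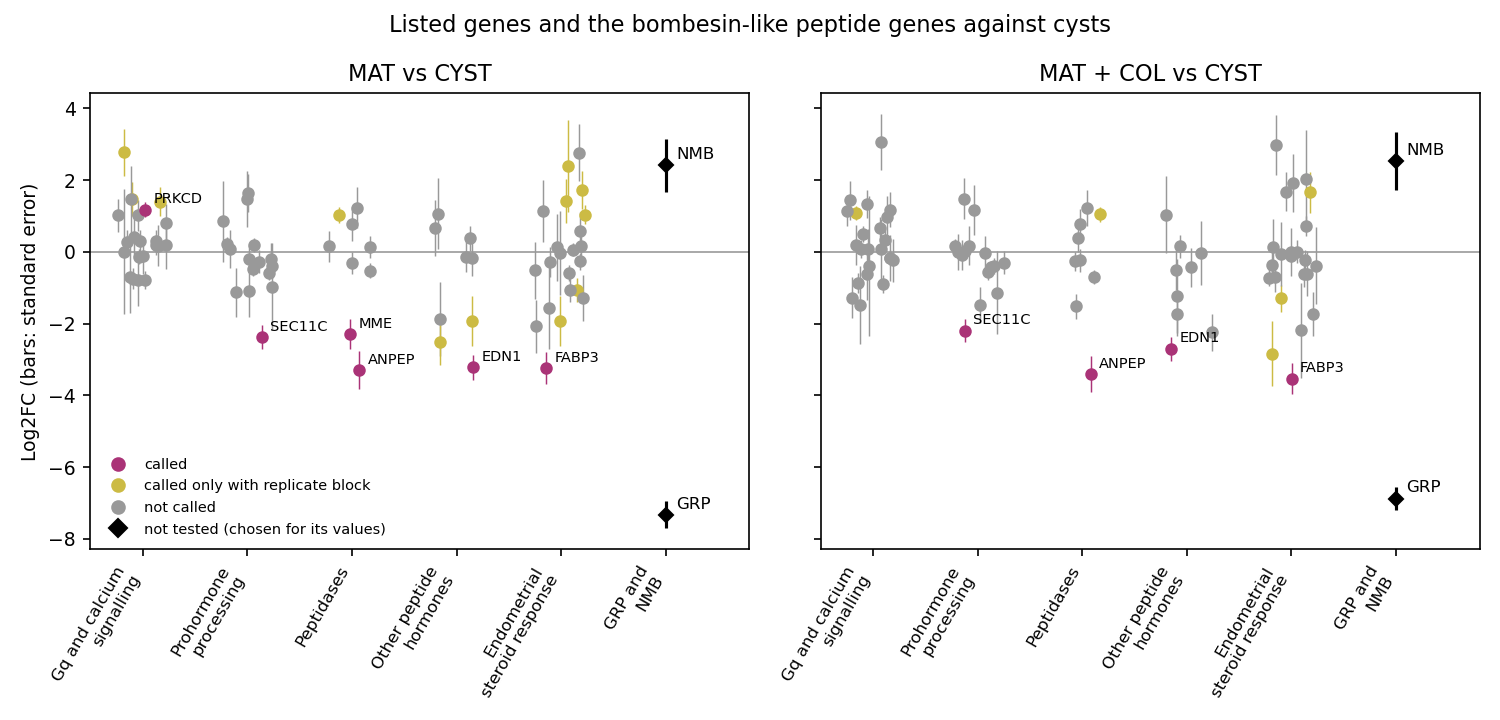
Log2FC (y axis, log2 scale) of each tested gene of 5 lists, without the granule genes, in MAT (left) and MAT + COL (right) against CYST, with bars for SE and colours for the calls. SEC11C, ANPEP, EDN1 and FABP3 are called lower in both panels, and the untested diamonds of GRP lie at -7.33 and -6.88, below every listed gene shown.

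SEC11C is also the nearest gene before GRP. It lies on chromosome 24 from 58152213 to 58165916 on the same strand and ends 37653 bases before the start of GRP. Of the other 5 nearest genes, RAX and CPLX4 had no reads, OACYL was below the filter, and ZNF532 and LMAN1 were not called. LMAN1, a cargo receptor between endoplasmic reticulum and Golgi, had 84.4 ± 29.0, 61.5 ± 19.1 and 60.7 ± 7.33 TPM (SD, n = 3 each) in CYST, MAT and MAT + COL, with a Log2FC of -0.42 in MAT (adjusted p = 0.463). NMB has SEC11A on its other side from WDR73, 9593 bases away, so a signal peptidase subunit gene lies near each ligand gene. None of the 6 nearest genes of NMB was called. Near GRPR, CA5B, a mitochondrial carbonic anhydrase, was called higher in MAT (Log2FC 1.38, adjusted p = 0.0414), a call kept in 1 of 6 settings that left out a library, and in MAT + COL it was called with the block and not without it (Log2FC 1.23, adjusted p = 0.0538, and 0.0336 with the block).

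**Figure D4:**
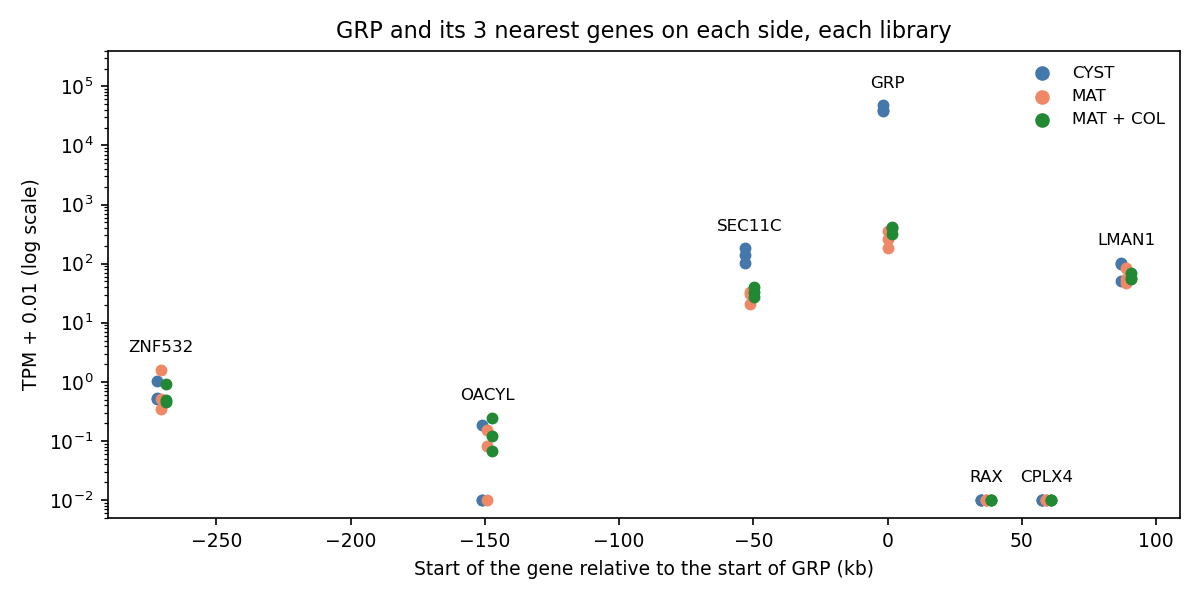
TPM + 0.01 on a log axis of GRP and its 3 nearest genes on each side, in each of the 9 libraries, against the distance between gene starts in kb. SEC11C and GRP are the only genes in the window whose CYST libraries all lie above the libraries with EGF.

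The genes most like GRP were sought by Pearson's r of log2 CPM over the 9 libraries among 12858 genes. These libraries fall into groups, so r mainly follows the contrast between CYST and EGF, and it is given as a description. The highest r was 0.99, for ENSBTAG00000007392 (chromosome 21 from 59163924 to 59174909). The deposited tables give it no symbol, and its interval covers the whole of SERPINA14 in RefSeq, the uterine serpin or uterine milk protein, which ruminant glands secrete under progesterone. It had 5616, 5483 and 7778 TPM in CYST, 20.8, 26.4 and 59.4 in MAT, and 27.4, 83.1 and 42.8 in MAT + COL. The CYST libraries were all far above the others. This locus fell by 7.49 on the log2 scale in MAT (SE 0.57, adjusted p = 0.00673 from edgeR), with a Log2FC of -7.03 in MAT + COL (SE 0.57, adjusted p = 0.0139). Both calls held when each library was left out in turn. The locus was picked for its likeness to GRP, so these p-values say nothing of the likeness itself.

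The next genes were RBM25, a splicing factor (r = 0.98), HAL (r = 0.98), EIF2B3, a subunit of the translation factor eIF2B (r = 0.98), and MPC1, a mitochondrial pyruvate carrier subunit (r = 0.98). MPC1 had 143.2, 39.3 and 40.9 TPM as means of CYST, MAT and MAT + COL. The most opposite genes were GPX3, a secreted glutathione peroxidase, UCP2, a mitochondrial carrier, and PPP2R5A, a regulatory subunit of protein phosphatase 2A, with r of -0.99, -0.99 and -0.98. Within groups, the r of the 5 genes most like GRP was only 0.11 to 0.54. None of the 5 was among the 5 most alike by deviations from the group means or by Spearman's rho, and 2 of them were with log2(TPM + 1). For NMB, FAM3D, a secreted cytokine-like protein, NDRG2 and TMC5 had r of 0.99, 0.98 and 0.98, and within groups 0.97, 0.94 and 0.95. NMB and these genes thus varied together between libraries of one group too. They were picked by r over the same 9 libraries, and NMB varied within groups, so the r within groups is no separate support.

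**Figure D5:**
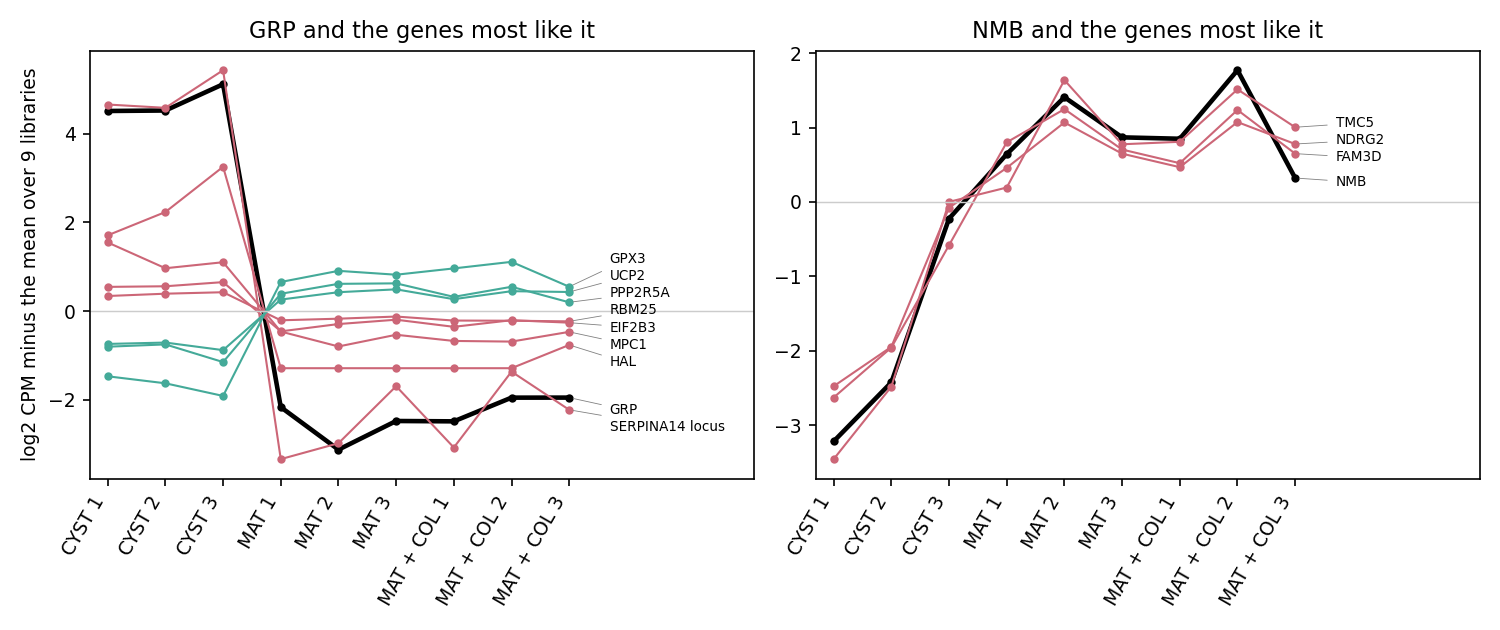
Log2 CPM minus the mean over 9 libraries (y axis) for GRP (left) and NMB (right) in black, the genes with the highest r in red and, for GRP, those with the lowest r in green, by library. The genes like GRP are high in the 3 CYST libraries and flat or uneven in the other 6, whereas the genes like NMB follow it through the replicates.

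Markers of other cell types were read beside these results. Of 11 neuroendocrine markers found, 6 had no reads in any library, among them CHGB and NEUROD1, and the summed level of the list was 5.57 to 13.7 TPM in CYST, 4.05 to 12.4 in MAT and 6.06 to 13.5 in MAT + COL. Of 9 neuronal markers, 3 had no reads and the sums overlapped, at 49.7 to 107.9, 56.7 to 87.9 and 56.2 to 69.8 TPM. The 9 stromal markers also overlapped, with 2260 to 4878, 1208 to 3798 and 2232 to 4316 TPM, as did the endothelial (8 markers, 8.67 to 47.0 TPM over all libraries), immune (11 markers, 22.2 to 50.0 TPM) and ciliated cell lists (6 markers, 30.4 to 70.2 TPM). The sum of the 5 smooth muscle markers was, like GRP, higher in every CYST library than in every library with EGF. It was 148.9 to 187.8 TPM in CYST, 40.5 to 88.6 in MAT and 73.5 to 94.9 in MAT + COL. The epithelial sum was, like NMB, lower in every CYST library. Among single genes tested, 11.8% and 10.3% were likewise lower without overlap in MAT and MAT + COL, and 11.9% and 14.3% higher. The part of these lists in the results for GRP and NMB was not tested. Of all markers, edgeR called 0 of 46 in MAT and 0 of 47 in MAT + COL against CYST, with 10 and 7 at an unadjusted p under 0.05. Over all genes tested, 1.67% and 1.29% were called. There, 2496 of 12074 and 2709 of 12509 were at an unadjusted p under 0.05. DESeq2 called 4 and 2 markers, beside 832 of 12074 and 847 of 12509 genes tested. With the replicate block 4 and 1 markers were called, beside 7.02% and 3.89% of all genes tested. The epithelial KRT19 was called higher in each of these. The smooth muscle gene TAGLN was called lower by DESeq2 in both comparisons and with the block in MAT.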

How the data were processed

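RNA from 9 libraries was prepared by the submitters with the SMART-Seq HT PLUS kit. The authors trimmed the reads and aligned them to ARS-UCD2.0 in CLC Genomics Workbench 25.0.1 with default parameters. They deposited counts, the unnormalised number of reads per gene, and TPM values of the same 20679 genes. The annotation release and the strand setting are not given in the sources used here.

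Groups and replicate numbers were taken from the labels. Deposited counts of the 6 libraries of each comparison were filtered with filterByExpr (minimum count 10), TMM-normalised and tested with edgeR 4.0.16 (quasi-likelihood) in R 4.3.3, with Benjamini-Hochberg adjustment over all genes tested. Standard errors are the Log2FC divided by the root of F. DEGs met an adjusted p under 0.05, a Log2FC beyond 1 and a larger group mean above 1 TPM. The deposited TPM values were used for levels, shares and ranks. Likeness used log2 CPM with a prior count of 2. Figures were drawn with matplotlib 3.10.9. Simulated counts, drawn with no effect of the replicate number, were also run through the edgeR test without a replicate block. This check does not cover libraries that deviate together by replicate number.

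Libraries with the same replicate number deviated together from the means of their groups, with a correlation across genes in each pair of 0.329 to 0.437 for MAT and CYST, 0.278 to 0.350 for MAT + COL and CYST and 0.471 to 0.687 for MAT + COL and MAT. The numbers were therefore taken to pair the libraries, and a fit with the replicate number as a block was run beside the main one.

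The members and lists (168 genes in 7 pathway lists, of which 160 were found, and 8 marker lists) were chosen with earlier results of these data known. Genes were named as listed genes that were called, the most abundant of each list, the 5 most abundant of each group, the 3 nearest on each side of each member, the genes most like or unlike GRP and NMB, and the called genes with the Log2FC nearest to GRP. Genes without a symbol were matched to RefSeq (ARS-UCD2.0) by interval, where 17208 of 17234 genes with the same symbol and chromosome overlapped. No sequence tables were used here. A few listed genes are not reported here by name. Alternatives were DESeq2 1.42.0, RLE size factors, no filter, the replicate block, all 9 libraries in one fit, other TPM and Log2FC criteria, GRP left out of the counts, log2(TPM + 1), log2(CPM + 1) and leaving out each library.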

Additional observations from a re-analysis of the deposited data

How the results depend on the processing

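The Log2FC of GRP moved by less than the spread between replicates in all 39 alternative values over the 3 comparisons, and that of NMB in 40 of 42. The exceptions for NMB were the values without CYST replicate 3. When each library was left out in turn, the Log2FC of NMB ranged from 2.00 to 3.82 in MAT and from 2.00 to 3.93 in MAT + COL, both against CYST. GRPR had no value under any alternative, since it had no reads. The number of DEGs in MAT against CYST was 202 and became 832 with DESeq2, 848 with the replicate block (pairing the libraries by number) and 384 with all 9 libraries in the fit, and 5 to 263 with 1 library left out. For MAT + COL against CYST it was 161, and became 847, 486 and 381, and 3 to 184 with 1 library left out. Listed genes called went from 6 to 20 with DESeq2 and 19 with the replicate block in MAT (0 to 8 with 1 library left out), and from 5 to 20 and 12 in MAT + COL (0 to 6). The cause of these differences was not tested. MAT + COL against MAT gave 0 DEGs in every alternative run. By counts in place of TPM, GRP ranked 1, 1 and 2 in CYST, 1144, 2524 and 1484 in MAT and 1493, 972 and 951 in MAT + COL. Of the 5 genes most like GRP, 2 were shared with log2(TPM + 1), 0 with Spearman's rho and 0 with deviations from the group means. The Log2FC of GRP and NMB against CYST kept its sign in all of these, whereas that of NMB in MAT + COL against MAT ranged from -0.41 to 0.38 with 1 library left out. Depth limits NMB in CYST (9 reads in replicate 1) and the receptors.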

Other observations

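A few other called genes had a Log2FC close to that of GRP, from much lower levels. RNASE1, a secreted ribonuclease, had 21.6 ± 10.8 TPM (SD, n = 3) in CYST and 0.151 ± 0.135 TPM (SD, n = 3) in MAT, with a Log2FC of -6.74 (standard error, SE, 0.72, adjusted p = 0.0165 from edgeR). ENSBTAG00000018481, whose interval overlaps the RefSeq gene LOC513329, had 39.9 ± 43.7 TPM (SD, n = 3) in CYST and 0.639 ± 0.653 TPM (SD, n = 3) in MAT (Log2FC -6.09, SE 1.14, adjusted p = 0.0462). In MAT + COL, SLC10A2, the sodium-dependent bile acid transporter of the ileum, had 0.0341 ± 0.0591 TPM (SD, n = 3) against 4.34 ± 1.74 TPM (SD, n = 3) in CYST, with a Log2FC of -6.51 (SE 0.99, adjusted p = 0.0373). FST had 12.4 ± 9.91 TPM (SD, n = 3) in CYST and 0.0950 ± 0.0347 TPM (SD, n = 3) in MAT + COL (adjusted p = 0.0416). Among the 6 settings that left out a library, the call of RNASE1 held in 2, those of ENSBTAG00000018481 and FST in 1, and that of SLC10A2 in 0. The fitted changes of these genes rest on few reads in the groups with EGF.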
